A study of Homo sapiens with 4 samples.

Results

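Loops at 9 genes of antigen presentation were examined in M14, an established human melanoma line. The genes were HLA-B, HLA-C, HLA-E, HLA-F, B2M, TAP1, PSMB9, NLRC5 and CD274, out of 19229 protein-coding genes on chromosomes 1 to 22. A loop was assigned to a gene when a GENCODE transcript start of that gene lay inside one of the loop's 5 kb anchors on hg19. By this rule the set had 10 of the 27289 loops in the WT list and 19 of the 25621 in the STAG2-KD list. HiChIP joins stretches of chromatin that lie near each other in the nucleus and enriches them with an antibody, here against H3K27ac, the acetyl mark of active promoters and enhancers. All cells carried an inducible short hairpin RNA against STAG2, a cohesin subunit. WT cells received no doxycycline, and STAG2-KD cells received it for 5 days. There were 2 samples per group but 1 loop list per group, filed under replicate 1, so differences between the lists could not be set against a spread between replicates and are given without p-values. The groups also differ in exposure to doxycycline itself, which cannot be told apart from the knockdown here.

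MHC class I molecules display peptides from inside the cell to CD8 T cells. Each consists of a heavy chain, such as HLA-B, HLA-C, HLA-E or HLA-F, and the invariant light chain B2M. The immunoproteasome, which contains PSMB9, cuts proteins into peptides, and the transporter of which TAP1 is a subunit carries them into the endoplasmic reticulum. NLRC5 is the transactivator of class I genes, and CD274 encodes PD-L1, the ligand that inhibits T cells through PD-1. Most of these genes respond to interferons, whose signals reach promoters through ISRE and GAS elements bound by IRF and STAT factors.

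Across the set, the surplus of loops in the STAG2-KD list lay at HLA-E, TAP1, PSMB9 and NLRC5, while B2M had the same loops in both lists and HLA-C and CD274 had none. HLA-E had 2 loops in WT and 5 in STAG2-KD. TAP1 had 2 and 5, and PSMB9 had 3 and 9. NLRC5 had 1 and 2, HLA-F had 1 and 1, B2M had 2 and 2, and HLA-B had 1 and 0.

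**Figure D1:**
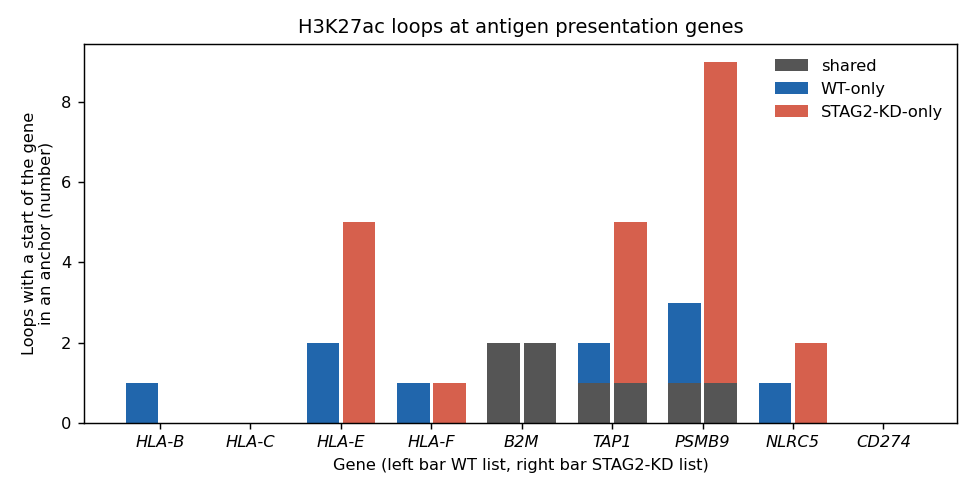
Number of loops with a transcript start of each gene in an anchor, in the WT list (left bar) and the STAG2-KD list (right bar), divided into shared and private loops. The bars of B2M are entirely shared, at 2 loops each, and the highest bar is PSMB9 in STAG2-KD with 9 loops.

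These counts were read against all protein-coding genes. At least 1 WT loop was found at 7 of the 9 genes, against 39.1% of all genes, and at least 1 STAG2-KD loop at 6 of 9, against 36.8%. More loops in STAG2-KD than in WT were found at 4 genes (HLA-E, TAP1, PSMB9 and NLRC5), a rule met by 15.3% of all genes. Fewer were found at 1 gene (HLA-B), against 19.4%. A surplus of 3 or more STAG2-KD loops was present at HLA-E, TAP1 and PSMB9, against 2.79% of all genes. The shares for more, fewer or surplus loops include genes without any loop, which cannot meet these rules. They are therefore lower than among genes that carry loops, as most of the set does. TAP1 and PSMB9 share an anchor and so repeat part of the same observation. Without these 2 genes the set had 7 WT and 10 STAG2-KD loops. No test was made on counts of this size.

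**Figure D2:**
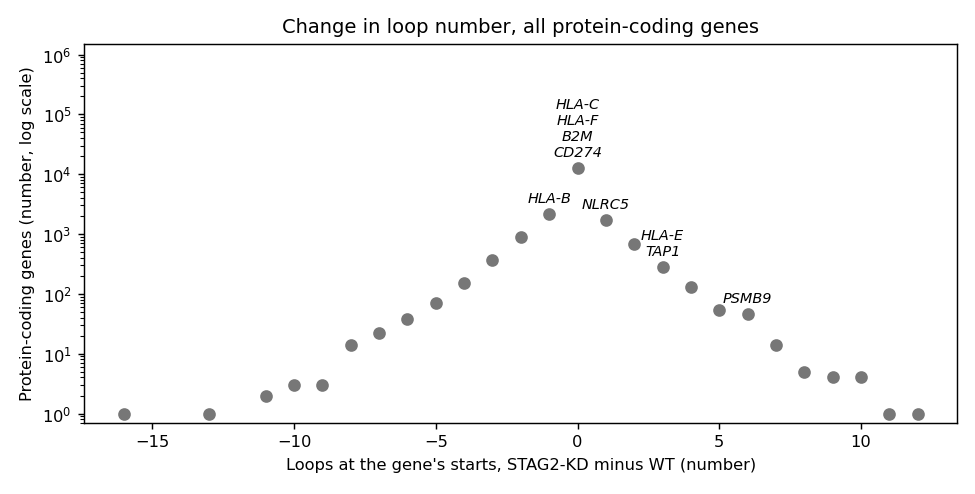
Number of protein-coding genes (log scale) at each difference in loop number, STAG2-KD minus WT, with the 9 genes named at their own difference. HLA-E and TAP1 stand at 3 and PSMB9 at 6, where 278 and 46 genes lie, and HLA-C, HLA-F, B2M and CD274 stand at 0 with 12559 genes.

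Most loops of the set were private to 1 list, as were most loops of the whole lists. The same bins at both anchors were present in both lists for 3 loops, at B2M and at the TAP1 and PSMB9 promoter. They made up 30.0% of the WT loops (exact binomial interval at 95%, 6.67 to 65.2). In the STAG2-KD list they made up 15.8% (3.38 to 39.6). Over the whole lists the corresponding shares were 38.0% and 40.5%. Allowing each anchor to lie within 2 bins matched 50.0% of the WT loops at the set (18.7 to 81.3) and 31.6% of the STAG2-KD loops (12.6 to 56.6), against 49.3% and 52.8% of all loops, both within these intervals. Loops at 1 anchor are not independent, so the intervals understate the uncertainty. The genes HLA-E, HLA-F and NLRC5, 3 in number, had loops in both lists with none in common, a pattern seen at 6.60% of all genes. That share, 1269 of 19229, includes genes that cannot show the pattern, since 7509 had a WT loop and 7080 a STAG2-KD loop. Among genes with loops in both lists the share is therefore higher.

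Distances between anchor midpoints ran from 20 to 345 kb in WT, with a median of 140 kb, and from 20 to 660 kb in STAG2-KD, with a median of 105 kb. The 95% order-statistic intervals of these medians were 25 to 240 kb and 45 to 385 kb. They treat loops as independent, although several share an anchor. A difference in distance between the groups was not tested. The medians of the complete lists were 90 and 85 kb. Loops over 500 kb numbered 0 of 10 in WT and 3 of 19 in STAG2-KD, which is 15.8% (3.38 to 39.6), against 3.63% and 4.52% of all loops. The shares on chromosome 6 were 7.44% and 8.63%, and in the MHC stretch described further on they were 1.47% and 3.85%. The STAG2-KD shares of all loops, of chromosome 6 and of this stretch all lie within the interval. The stretch includes loops of the set. Without them its shares were 1.55% and 2.13%, the latter below the interval. All 3 loops of the set over 500 kb were on chromosome 6, at HLA-E, at the TAP1 and PSMB9 promoter and at an outer start of PSMB9.

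The anchors of private loops were looked up in the other list. Of the 16 STAG2-KD-only loops, all 16 left from a gene anchor that WT loops also used, and 11 ended at a partner anchor present in WT. Of the 7 WT-only loops, 6 left from a gene anchor used in STAG2-KD and 5 ended at an anchor present there. Both anchors were present in the other list for 11 of the 16 and 4 of the 7, against 46.2% of all STAG2-KD-only and 44.7% of all WT-only loops with a protein-coding start in an anchor. A protein-coding start lay in the partner anchor of 8 of the 16 STAG2-KD-only and 3 of the 7 WT-only loops. Among all private loops with a protein-coding start in an anchor, 29.8% and 31.4% had such starts at both. These shares count each loop once, whichever anchor has the start, while loops of the set were picked from a given gene anchor. A loop with starts at both anchors can be picked from either, so a share counted from gene anchors would be higher. The counts of the set can therefore not be read as above these shares. No test was made on these counts, in which several loops share an anchor.

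**Figure D3:**
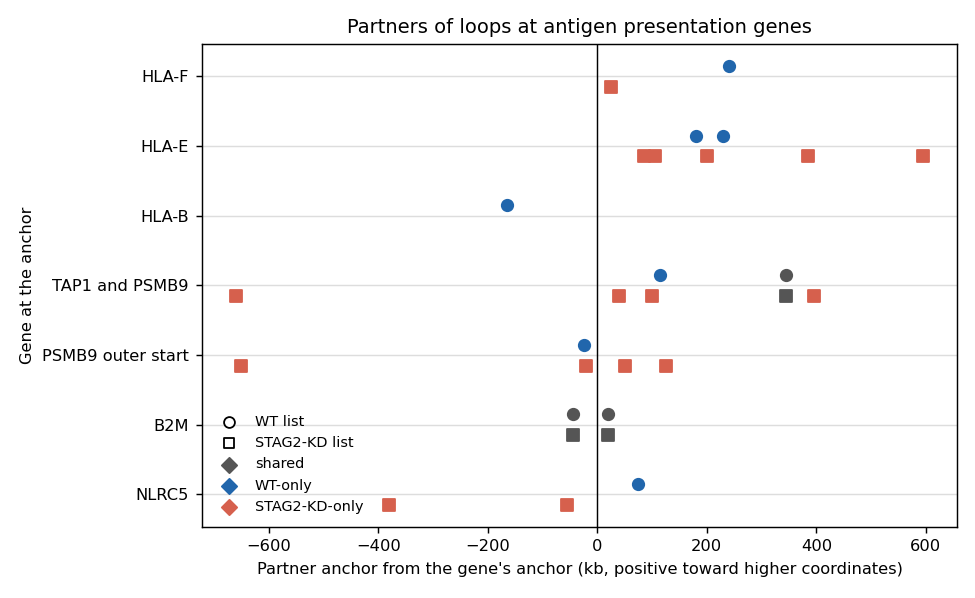
Distance in kb from the anchor of each gene to the partner anchor of every loop, with positive values toward higher coordinates, for the WT list (circles) and the STAG2-KD list (squares). All HLA-E partners lie on the positive side, from 85 to 595 kb, and the B2M partners coincide in both lists at 45 and 20 kb on either side.

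The peptide supply genes TAP1 and PSMB9 held 9 of the 19 STAG2-KD loops. TAP1 (ENSG00000168394, chr6:32812986-32821593, minus strand) and PSMB9 (ENSG00000240065, chr6:32811913-32827628, plus strand) are transcribed away from each other from a common promoter, and their canonical starts, at 32821481 and 32821969, fall in the same anchor, chr6:32820001-32825000. A stretch of 300 bases between them is shown because all TAP1 loops leave from the anchor that holds it. It covers chr6:32821594-32821893 on the plus strand of GRCh37, the sequence of hg19, from the base after the outermost TAP1 start. Capitals mark matches to the motifs described further on. An ISRE pair lies at its TAP1 end.
TAP1 and PSMB9 promoter: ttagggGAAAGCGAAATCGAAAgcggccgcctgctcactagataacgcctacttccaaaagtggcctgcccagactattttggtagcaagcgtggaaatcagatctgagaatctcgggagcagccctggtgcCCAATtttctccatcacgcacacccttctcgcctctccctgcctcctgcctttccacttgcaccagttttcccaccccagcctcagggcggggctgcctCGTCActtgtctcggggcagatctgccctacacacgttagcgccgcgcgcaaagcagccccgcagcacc

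This anchor had 2 loops in WT and 5 in STAG2-KD. The loop present in both lists ran 345 kb to chr6:33165001-33170000, with starts of RXRB, a retinoid X receptor, and SLC39A7, a zinc transporter. That partner is a dense anchor, with 13 loops in each list. The WT-only loop ran 115 kb to chr6:32935001-32940000, which holds starts of BRD2, a reader of acetylated histones, and HLA-DMA, a chain of the class II peptide exchange factor.

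The 4 STAG2-KD-only loops of the shared promoter ended in other bins. The closest, at 40 kb, ended at chr6:32860001-32865000, where HLA-Z, a class I pseudogene, starts. The next, at 100 kb, ended at chr6:32920001-32925000, at a start of HLA-DMA that had 0 WT loops. This loop was 3 bins from the closest WT loop. The third, at 395 kb, ended at chr6:33215001-33220000, inside VPS52 and at a start of the noncoding gene HCG25. The longest, at 660 kb, ended on the opposite side at chr6:32160001-32165000, with starts of GPSM3 and of NOTCH4, a Notch receptor. The number of loops at that NOTCH4 anchor was 2 in WT and 8 in STAG2-KD, and at the HLA-Z anchor it was 1 and 5. At the HCG25 anchor it was 11 and 16, and at the HLA-DMA anchor 0 and 2.

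PSMB9 has further transcript starts in chr6:32810001-32815000, the bin that also holds the start of PSMB8, another immunoproteasome subunit. This bin had 1 loop in WT and 4 in STAG2-KD, with none at identical bins in both. The WT loop ran 25 kb to an outer start of HLA-DOB, and a STAG2-KD loop ran 20 kb to the bin beside it, so these differed by 1 bin. A STAG2-KD loop of 125 kb reached the BRD2 and HLA-DMA anchor and lay within 2 bins of the WT-only loop of the common promoter to the same place. The remaining STAG2-KD loops ran 50 kb to the HLA-Z anchor and 650 kb to the NOTCH4 anchor. Both bins of PSMB9 thus contacted the HLA-Z and NOTCH4 anchors in the STAG2-KD list and neither did in the WT list. With canonical starts alone, PSMB9 had 2 loops in WT and 5 in STAG2-KD, the same as TAP1.

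HLA-E, the heavy chain whose product is recognised by the NKG2A receptor of natural killer cells, lies at chr6:30457286-30461971 on the plus strand (ENSG00000204592). Its start falls in chr6:30455001-30460000. The 250 bases before the start, chr6:30457036-30457285 on the plus strand of GRCh37, are shown because every HLA-E loop leaves from this bin. Capitals mark a TGACG and a pair of CCAAT matches, the letters of CRE-like and CCAAT elements.
HLA-E promoter: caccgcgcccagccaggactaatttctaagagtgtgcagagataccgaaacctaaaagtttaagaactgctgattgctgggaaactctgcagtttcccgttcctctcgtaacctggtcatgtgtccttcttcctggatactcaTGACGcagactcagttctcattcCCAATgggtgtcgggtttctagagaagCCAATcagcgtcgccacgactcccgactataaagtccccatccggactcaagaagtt

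All 7 loops of HLA-E ran toward higher coordinates, and none was shared. In WT they ran 180 kb to chr6:30635001-30640000, inside the helicase gene DHX16, and 230 kb to chr6:30685001-30690000, with starts of TUBB, a beta tubulin, and MDC1, a DNA damage mediator. In STAG2-KD the distances were 85, 105, 200, 385 and 595 kb. The closest pair ended inside ABCF1. The loop of 200 kb ended at the starts of NRM and PPP1R18, and that of 385 kb at a start of DDR1, a collagen receptor kinase. The longest ended at chr6:31050001-31055000, which had no protein-coding start and 0 loops in WT.

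The HLA-E partners separated the lists less sharply when neighbouring bins were considered. The loop of 85 kb lay within 1 bin of a WT-only loop of 75 kb that left from the next bin, chr6:30460001-30465000, which overlaps the 3′ end of HLA-E and the bases after it. That neighbouring bin also had a STAG2-KD-only loop of 120 kb. The other 4 STAG2-KD-only loops were 4 to 42 bins from the closest WT loop.

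HLA-F, a heavy chain with restricted expression, lies at chr6:29690552-29706305 (ENSG00000204642, plus strand). It had a single loop in each list, from chr6:29690001-29695000. The WT-only loop ran 240 kb to chr6:29930001-29935000, and the STAG2-KD-only loop ran 25 kb to chr6:29715001-29720000, which holds a start of HLA-F-AS1, the antisense transcript of HLA-F. Neither partner had a protein-coding start.

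HLA-B and HLA-C, the classical heavy chains of the set, had almost no loops. HLA-C (ENSG00000204525, chr6:31236526-31239907, minus strand) had 0 in both lists. HLA-B (ENSG00000234745, chr6:31321649-31334844, minus strand) had 1, in WT, which ran 165 kb from chr6:31330001-31335000 to chr6:31165001-31170000, at a start of the noncoding gene HCG27. That bin holds outer HLA-B transcript starts, and the canonical start at 31324956 lay in no anchor, so with canonical starts HLA-B had 0 loops in both lists. The stretch without any anchor around the HLA-C start was 160 kb long in WT and 195 kb in STAG2-KD. A shared loop of 240 kb, between an anchor at CCHCR1 and TCF19 and an outer start of MICA, passed over both genes. Class I genes resemble each other closely in sequence, and how reads that match several of them were handled is not given in the sources used here, so a missing loop at HLA-B or HLA-C is uncertain.

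B2M (ENSG00000166710, chr15:45003556-45011049, plus strand) had the same loops in both lists. Its anchor, chr15:45000001-45005000, had 2 loops in each list, and both were shared. One ran 45 kb to chr15:44955001-44960000, with starts of SPG11 and PATL2, and the other 20 kb to chr15:45020001-45025000, at an outer start of TRIM69, a ubiquitin ligase gene. These anchors were also joined to each other over B2M by a shared loop of 65 kb. Each partner anchor had 3 loops in WT and 3 in STAG2-KD.

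NLRC5 (ENSG00000140853, chr16:57023397-57117443, plus strand) has annotated starts in 12 bins, and only the first, chr16:57020001-57025000, was an anchor. The WT-only loop ran 75 kb into the gene itself, to chr16:57095001-57100000. The STAG2-KD-only loops ran the other way. One ran 55 kb to the start of HERPUD1, a gene of endoplasmic reticulum protein degradation, and the other 380 kb to the start of MT2A, a metallothionein. The HERPUD1 anchor had 5 loops in each list. In WT it had loops of 160 and 255 kb that passed over NLRC5, to CPNE2 and to the anchor of RSPRY1 and PSME3IP1, and neither was in the STAG2-KD list, where 0 loops passed over the NLRC5 start.

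CD274 (ENSG00000120217, chr9:5450503-5470566, plus strand) had 0 loops at its starts, which fall in 3 bins, in either list. The WT list held 1 loop that passed over the gene. It ran 145 kb from chr9:5435001-5440000, at the start of PLGRKT, 10.5 kb before the CD274 start, to chr9:5580001-5585000, beyond the end of PDCD1LG2, which encodes the related ligand PD-L2. The STAG2-KD list did not hold this loop. Its closest anchor was 379 kb after the canonical CD274 start, at ERMP1, and the one before it was 1541 kb away, so that CD274 lay in a stretch of 1920 kb without an anchor. PDCD1LG2 and JAK2, a kinase of interferon receptor signalling, also had 0 loops in both lists.

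Within 500 kb of the CD274 starts the WT list had 4 loops and the STAG2-KD list 5. All but the PLGRKT loop had an anchor at chr9:5895001-5900000, which holds an outer start, inside the gene, of MLANA, a melanocyte antigen gene. The canonical MLANA start had 0 loops in both lists. The shared loop joined MLANA to ERMP1 over 65 kb. In WT the other MLANA loops ran 150 and 205 kb, and in STAG2-KD they ran 50, 120, 155 and 670 kb, the third of these 1 bin from the WT loop of 150 kb. None of the MLANA loops crossed the CD274 start.

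**Figure D4:**
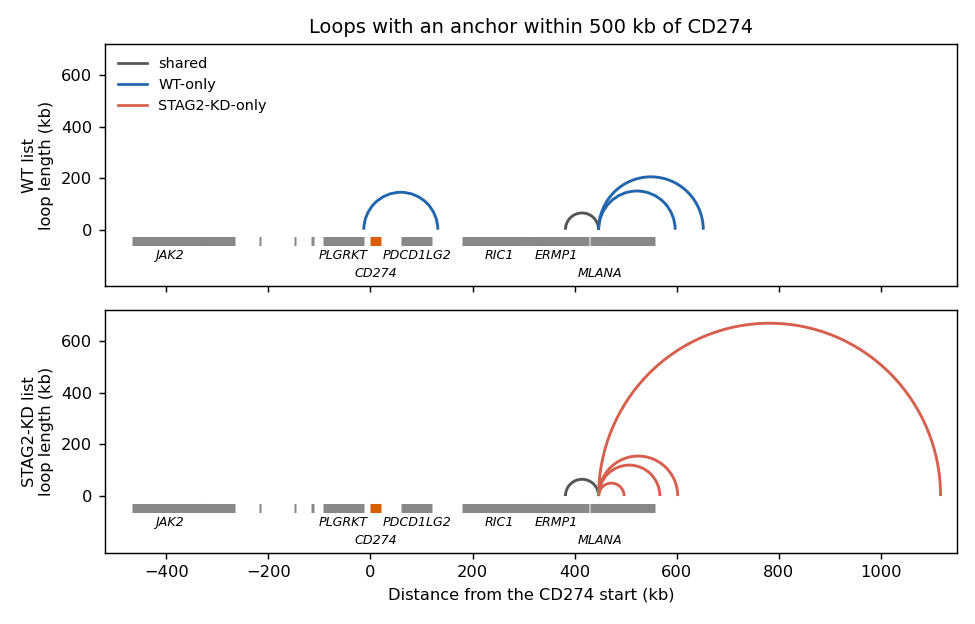
Loops with an anchor within 500 kb of CD274 in the WT list (top) and the STAG2-KD list (bottom), drawn as arcs whose height is the loop length in kb, against distance from the CD274 start in kb, with protein-coding genes as bars and CD274 in orange. The WT-only arc of 145 kb passes over CD274, and the remaining arcs begin 382 kb or more after its start, measured to the middle of the anchor.

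Promoters of the set were compared by motif, in 300 bases from 250 before the canonical start of each of 18971 protein-coding genes. The ISRE core was searched as GAAANNGAAA, the GAS as TTCNNNGAA, a form of the NF-kappaB site as GGGNNTTCC, the core of CRE as TGACG and the CCAAT box as CCAAT, each on both strands. Matches of different motifs may share letters, and a match is not evidence of binding. A missing match is not evidence that the element is absent, since only these exact letters within the window were counted. The ISRE pair printed above for the common promoter lies outside the window of PSMB9. The ISRE core was present at 5 of the 9 genes (HLA-F, B2M, TAP1, NLRC5 and CD274) and in 3.27% of all promoters. These sites are shown as 30 bases of GRCh37 on the strand of the gene, with the ISRE core in capitals, so that the letters of the 5 genes can be compared. Runs of 16 capitals hold a pair of overlapping cores.
TAP1: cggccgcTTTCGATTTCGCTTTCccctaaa
B2M: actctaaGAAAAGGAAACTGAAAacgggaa
CD274: tgacatgTTTCACTTTCTGTTTCatttcta
HLA-F: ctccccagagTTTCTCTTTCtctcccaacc
NLRC5: cggcttctacTTTCAGTTTCgtgcagagcg

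The sites lie at chr6:32821593-32821622 (minus strand), chr15:45003564-45003593, chr9:5450327-5450356, chr6:29691045-29691074 and chr16:57023455-57023484. TAP1, B2M and CD274 each had a pair of overlapping cores, and of these TAP1 had 2 WT and 5 STAG2-KD loops, B2M had the same 2 in both lists and CD274 had 0. TGACG was present at 5 genes (HLA-B, HLA-C, HLA-E, B2M and PSMB9), against 29.0% of all promoters, and CCAAT at 7, against 35.7%. GGGNNTTCC matched HLA-B and B2M, against 7.40% of promoters.

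CD274 was the only 1 of the 9 genes with a GAS match, a motif found in 6.62% of all promoters. Its promoter is shown to place the ISRE pair and the GAS, both in capitals, at a start that lies in no loop anchor, under the WT-only loop from PLGRKT. The 250 bases are chr9:5450253-5450502 on the plus strand of GRCh37, and they end before the outermost annotated transcript start.
CD274 promoter: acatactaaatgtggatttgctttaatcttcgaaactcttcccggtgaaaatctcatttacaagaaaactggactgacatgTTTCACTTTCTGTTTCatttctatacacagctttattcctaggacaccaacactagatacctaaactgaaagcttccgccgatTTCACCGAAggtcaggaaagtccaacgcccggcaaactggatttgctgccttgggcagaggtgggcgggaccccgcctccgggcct

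The members on chromosome 6 were set against the surrounding region, a stretch chosen after the lists had been examined. From the start of HLA-F to the end of TAPBP, chr6:29690552-33282061, there were 136 loops in the WT list and 156 in the STAG2-KD list, while the whole of chromosome 6 had 1572 and 1379. Shared loops were 50.7% of the WT loops of this stretch (42.0 to 59.4) and 44.2% of its STAG2-KD loops (36.3 to 52.4). On all of chromosome 6 they were 34.4% and 39.2%. Without the loops at the 6 members on this chromosome, 129 WT loops and 141 from STAG2-KD were left, and the lists had 68 of them in common.

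Other genes of the pathway were counted by the same rule. Among 13 other genes of class I processing and loading, 5 had more loops in STAG2-KD, 1 had fewer, 4 had equal numbers above 0 and 3 had none, with 18 WT and 27 STAG2-KD loops in all and 7 shared. Over all genes, including those without a loop, 15.3% had more and 19.4% had fewer. The 1 and 4 loops of PSMB8 are those of the outer PSMB9 bin and so repeat part of the surplus at PSMB9. ERAP2, a peptide-trimming aminopeptidase, had 2 and 4 with 0 shared, and ERAP1 had 1 and 0, away from its canonical start. PDIA3, a chaperone of the peptide-loading complex, had 0 and 2, and TAPBP, which encodes tapasin, had 2 and 2. TAP2, the partner of TAP1, had 0 in both lists. Among 3 RFX genes, whose products bind class I and class II promoters, RFX5 had 3 and 3 with 2 shared and RFXANK had 1 and 2.

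Among 12 class II genes, 3 had more loops in STAG2-KD, 3 had fewer and 6 had none, against 15.3% of all genes with more and 19.4% with fewer. The antigen-presenting pairs HLA-DRA and HLA-DRB1, and HLA-DQA1 and HLA-DQB1, had 0 in both lists. HLA-DMA had 13 WT loops, 17 STAG2-KD loops and 9 in common, mostly at an outer start in the BRD2 anchor, since its canonical start had 0 and 2. CIITA, the class II transactivator, had 2 and 0. MICA and MICB, stress ligands of the NKG2D receptor, had 5 and 2 and 3 and 2. The canonical starts of CIITA, MICA and MICB had 0 loops in both lists, so these counts come from other annotated starts.

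Both checks of the samples were limited by the lists. Neither held a loop on chromosome X, which carries STAG2. Loop positions do not measure STAG2 RNA or protein in any case, so the knockdown could not be examined here. Of 6 melanocyte lineage genes, 5 had a loop in at least 1 list (MITF, SOX10, PMEL, DCT and MLANA, but not TYR), of which DCT alone had them at its canonical start. Of 4 genes of other lineages 1 did (CD3E), with 1 WT and 3 STAG2-KD loops, all at its canonical start. At canonical starts only DCT and CD3E had loops, so these counts do not separate the lineages. Over all genes, 39.1% had a WT loop and 36.8% a STAG2-KD loop. RNA was not examined here, so a loop at a start was not taken to show that the gene is expressed.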

How the data were processed

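The study was described by its labels as 4 H3K27ac HiChIP samples of M14 cells, 2 WT and 2 STAG2-KD, grouped by title. Per the labels and the study's methods, the authors aligned reads to hg19 with HiC-Pro, identified peaks with hichip-peaks and loops with FitHiChIP. Their versions are not given in the sources used here, nor whether a list merges replicates. The deposited lists have 3 columns (chromosome, left anchor start, right anchor end), hold positions rather than counts or scores, and so give no depth. A loop missing from a list may have fallen just short of the limit of the caller.

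Columns were read as 0-based starts and ends and are printed counted from 1. Anchors were 5 kb wide, and loops were shared when both anchors had identical bins. Transcript starts were those of GENCODE release 44 in its GRCh37 version, and no loop passed a chromosome end of that sequence. Canonical starts are those of Ensembl canonical transcripts. Shares carry exact Clopper-Pearson intervals at 95%, which cover the counting of loops only. The counting was tested on simulated data, in which changes planted at 200 of 19229 genes were all recovered. Python 3.11.15, numpy 2.4.6, scipy 1.17.1 and matplotlib 3.10.9 were used. All members, their partner genes and the listed pathway genes with loops could be named. Some genes of the fixed lists are not reported here, and the counts leave them out. The members and lists were chosen with earlier results of these data known.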

Additional observations from a re-analysis of the deposited data

How the results depend on the processing

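Alternatives were starts of protein-coding transcripts, the gene start alone, starts within 5 kb of an anchor, loops up to 500 kb, the earlier 50% of each chromosome's lines, tolerances of 1 and 2 bins, and a window of 1 Mb around CD274. Canonical starts alone and leaving out TAP1 and PSMB9 were added after the lists had been seen. Of 57 values for 9 results, 50 stayed inside the 95% interval of the value given above or, where loops were counted, changed by no more than 1.5 times. For shares and medians the intervals are wide, so staying inside them is a weak check. A WT median of 80 kb in the earlier lines and a STAG2-KD share of 31.6% within 2 bins both stayed inside. In the earlier 50% of lines, 4 WT and 7 STAG2-KD loops with 1 shared were left, because fewer lines entered. Within 2 bins, 5 WT loops were matched, because more loops can match. Without TAP1 and PSMB9, 10 STAG2-KD loops remained. Within 1 Mb of CD274 each list had 9 loops, because the window is wider. The count in STAG2-KD stayed above that in WT under each setting for the starts, lines and genes. These settings use the same lists again and are no check across replicates. Of the 7 WT and 10 STAG2-KD loops left without TAP1 and PSMB9, 2 and 5 were at HLA-E. Leaving out HLA-E as well was not among the settings.

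No paired analysis was possible because only 1 loop list per group was analysed. Leaving out a replicate was not possible for the same reason. Without read counts, loops of unequal strength counted alike.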

Other observations

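CTCF, the DNA-binding protein at which cohesin often halts, was searched in the anchors by a core of its motif, CCANNAGGNGGC, on both strands. It was present in 1 of 7 anchors at the member genes, the outer HLA-B start, and in 3 of 23 partner anchors. The partners were the BRD2 anchor, the HLA-DMA anchor reached from TAP1 in STAG2-KD, and the anchor of the longest HLA-E loop. Among all anchors the core was found in 7.02% of WT and 6.94% of STAG2-KD anchors. No loop at a member gene had the core at both anchors. The share of all loops with the core at both was not computed, so this is not read as a trait of the set. These counts were obtained after the lists had been examined, and no test was made on them.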
